A study of Homo sapiens with 12 samples.

Results

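The genes described here are the protein-coding genes of human chromosome 16, followed in the order in which they lie on the chromosome, in the parental and the SDS22-degron line of HCT116 cells. Members were chosen by their measured counts: a gene on chromosome 16 with the type protein_coding had to have a raw count of 200 or more when the 12 libraries were added up. This gave 554 members of the 858 protein-coding genes of the chromosome, in a table of 58233 genes. The rule used neither the line nor the treatment, and all 554 members entered the test. The last gene inside the limit was CMTM1, with a summed count of 211, and the nearest gene below it was NPIPB15, with 189. The members were grouped in windows of 10 Mb by the start position of the gene. Of the 554, 516 were matched by symbol to a gene of GRCh38.p14 and all 516 overlapped it, so positions are given on that build.

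The cells were HCT116, a human line from a colorectal carcinoma, and both lines carried the same transgene: OsTIR1, a plant F-box protein, placed at the AAVS1 locus and switched on by doxycycline (Dox). The parental line is labelled HCT116 Tet-OsTIR1. In the SDS22-degron line, labelled HCT116 Tet-OsTIR1 SDS22 WT (SDS22), the endogenous alleles of PPP1R7, which encodes the PP1 regulator SDS22, were tagged with a mini auxin-inducible degron and the fluorescent protein mClover. This line was expanded from an isolated colony, so the line difference is that between 1 clone and its parental line. Cells of each line were left untreated or received 2 µg/ml Dox plus 500 µM of the auxin IAA for 48 h, which makes OsTIR1 available and directs the tagged protein to the proteasome. RNA of 3 biological replicates per condition was sequenced, giving 4 groups and 12 libraries.

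Chromosome 16 is a gene-rich chromosome. Its short arm starts at a telomere next to the alpha-globin cluster and ends in heterochromatin around the centromere, and its long arm carries among others the E-cadherin gene CDH1 and, in a common fragile site, WWOX. When cells lose or gain a piece of a chromosome, the mRNAs of the genes on it tend to shift together, each by a modest amount, whereas regulation through a pathway moves genes that are scattered over the genome. HCT116 cells are known to carry a derivative chromosome 16 joined to material of the long arm of chromosome 8. DNA copy number was not measured in these samples, and its part in the values below was not tested.

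Promoters are shown for 4 members, because these were the members with a promoter entry, a mean of at least 10 CPM (read counts scaled to a common library size) and the largest fitted changes among the genes chosen for the comparisons. ABAT encodes the GABA transaminase and had the largest rise with Dox/IAA among them. C16orf62, named VPS35L in RefSeq, encodes a subunit of the retriever complex for endosomal recycling, and PLEKHG4 encodes a guanine nucleotide exchange factor. Both were among the lowest in the SDS22-degron line. SHCBP1 encodes a protein that binds SHC1 and acts in cytokinesis, and was among the lowest after treatment of the SDS22-degron line. Each line gives the 250 bases before the RefSeq start of the gene, read 5′ to 3′ on the strand of the gene (GRCh38.p14), at chr16:8674367-8674616 (plus strand) for ABAT, chr16:19555453-19555702 (plus strand) for C16orf62, chr16:67277912-67278161 (plus strand) for PLEKHG4 and chr16:46621380-46621629 (minus strand) for SHCBP1. Capitals mark matches, on either strand, to the TATA box (letters TATAAA), to the Sp-type GC box (letters GGGCGG), to the CCAAT box, to the TCF-type core (letters TTTGAA) or to a set of E2F-type sites (TTTCCCGC, then TTTGGCGC, then TTTCGCGC, and finally TTTGCCGC). No motif in the set contains another.

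ABAT: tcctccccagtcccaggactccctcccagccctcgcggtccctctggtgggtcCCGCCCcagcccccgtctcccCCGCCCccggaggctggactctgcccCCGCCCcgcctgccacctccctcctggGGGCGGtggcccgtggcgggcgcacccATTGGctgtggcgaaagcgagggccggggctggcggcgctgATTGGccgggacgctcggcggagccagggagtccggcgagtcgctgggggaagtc
C16orf62: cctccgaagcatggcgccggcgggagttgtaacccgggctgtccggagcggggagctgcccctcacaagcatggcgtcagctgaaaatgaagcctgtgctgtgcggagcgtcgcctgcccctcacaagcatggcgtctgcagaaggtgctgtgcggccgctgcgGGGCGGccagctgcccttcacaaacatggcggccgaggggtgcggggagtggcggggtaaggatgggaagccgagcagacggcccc
PLEKHG4: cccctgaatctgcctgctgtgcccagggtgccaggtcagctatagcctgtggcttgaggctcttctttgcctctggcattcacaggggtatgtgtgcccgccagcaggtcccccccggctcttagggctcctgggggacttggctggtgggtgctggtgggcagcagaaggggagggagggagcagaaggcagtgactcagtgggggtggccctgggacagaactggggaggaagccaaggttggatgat
SHCBP1: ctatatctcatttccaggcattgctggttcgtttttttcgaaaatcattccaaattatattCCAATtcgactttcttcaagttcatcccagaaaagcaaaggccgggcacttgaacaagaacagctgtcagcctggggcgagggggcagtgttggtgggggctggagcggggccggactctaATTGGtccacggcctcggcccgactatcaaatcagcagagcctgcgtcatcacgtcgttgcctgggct

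The ABAT promoter held 6 matches, of GGGCGG or its complement and of the complement of CCAAT. In SHCBP1 there were 2 matches, both to CCAAT, and C16orf62 had 1 match, to GGGCGG. No letters of the search were found in the printed window of PLEKHG4. For C16orf62 and PLEKHG4 the printed bases lie inside the gene as counted, which starts further upstream than the RefSeq start. Those of ABAT do so in part. RefSeq promoters, here with 250 bases before and 50 after the start, were matched for 436 members, of which 28 through a newer symbol. GGGCGG was found in 76.6% of these promoters, against 72.1% in the promoters of genes of other chromosomes taken by the same rule and 44.6% in all 27305 promoters. CCAAT was found in 37.2%, against 36.8% and 35.7%. TATAAA was in 3.45% of the member promoters, against 5.08% and 12.0%, and TTTGAA was in 7.13%, against 9.37% and 15.4%. The E2F-type set was in 7.36%, against 5.45% and 3.33%. The median GC content of the member promoters was 68.7%, against 65.7% and 58.3%. Member promoters that start from 80 Mb onward, 58 in number, were richer in GC than the 377 before (73.7% against 67.7%), more of them held GGGCGG (93.1% against 74.0%) and fewer held CCAAT (22.4% against 39.5%).

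The libraries held from 12133915 to 14657508 counted reads. The epithelial markers EPCAM (263 to 306 CPM), KRT8, KRT18 and KRT19 were high in every library and CDX2 lay between 20.5 and 34.9 CPM, whereas VIL1 and LGALS4 stayed under 0.154 CPM. PTPRC and PECAM1 were also close to 0, and COL1A1, a fibroblast marker, was between 9.88 and 31.7 CPM. The PPP1R7 transcript was between 40.1 and 51.1 CPM in the 12 libraries, which does not check the degradation, since the degron acts on the protein.

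In untreated cells, most of chromosome 16 was lower in the SDS22-degron line than in the parental line. Of the 554 members, 311 were lower (56.1%) and 24 were higher (4.33%) by edgeR's quasi-likelihood test at an adjusted p (Benjamini-Hochberg) under 0.05. Over all 16657 tested genes, 15% were lower and 13.2% were higher. Among protein-coding genes of the other chromosomes taken by the same count rule, 16.3% were called in each direction. The median log2 fold change of the members was -0.31, which is 80.6% of the parental level, whereas that of all tested genes was 0.003. The quartiles were -0.49 and -0.13, and 84.7% of the members were below 0. The standard error of a member's log2 fold change had a median of 0.094. In bulk RNA, fewer cells that express a gene and less RNA per cell cannot be told apart.

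The shift was alike in all libraries of the line. Taking for each library the median over members of the log2 CPM minus the mean of the untreated parental libraries, the untreated parental libraries were at -0.01, -0.00 and 0.02, and the treated ones at 0.00, 0.01 and 0.01. Libraries of the SDS22-degron line were at -0.32, -0.30 and -0.29 untreated and at -0.35, -0.32 and -0.31 after Dox/IAA. The 2 lines did not overlap and the treatment did not bring them together.

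The same comparison between the treated lines, which rests on the other 6 libraries, gave 309 lower members (55.8%) and 43 higher members (7.76%), while 23.1% of all tested genes were lower and 21.8% were higher. Among protein-coding genes of the other chromosomes by the same count rule, 24.4% were lower and 26.3% were higher. The median of the members was -0.32 (80.3% of the parental level), with quartiles of -0.53 and -0.04. Of the members, 243 were lower in both comparisons, which is 78.1% of those lower in untreated cells and 78.6% of those lower in treated cells. A further 20 were higher in both, and 1 member was called in opposite directions. Among genes of other chromosomes by the same count rule, the shares lower in both were 60.8% and 40.7%. Across the 554 members, which are not independent replicates, the log2 fold changes of both comparisons had a Pearson's r of 0.65. Their Spearman's rank correlation was 0.58. The genes of other chromosomes had 0.70 and 0.57, so this correlation was not particular to chromosome 16.

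**Figure D1:**
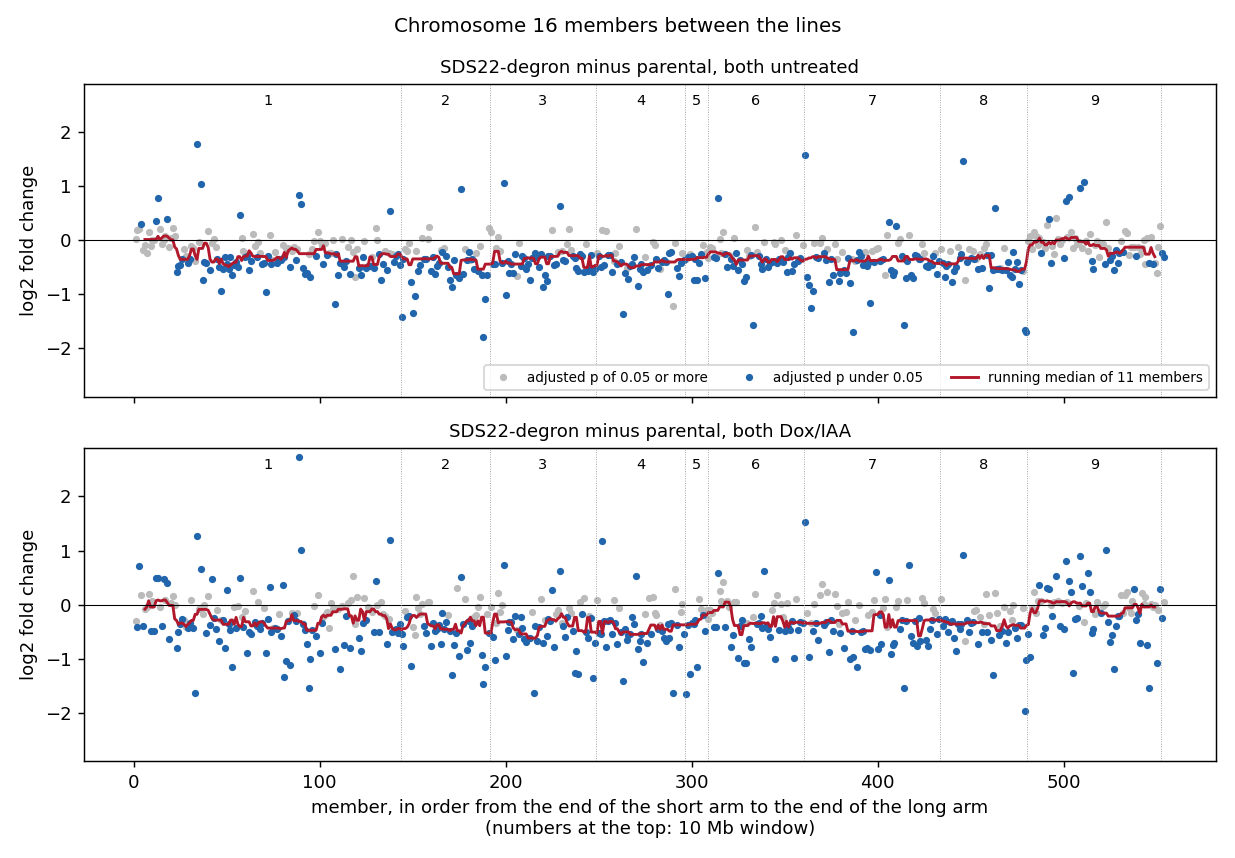
Log2 fold change of the SDS22-degron line against the parental line (y axis) for the 554 members in their order along chromosome 16 (x axis), untreated in the upper and Dox/IAA in the lower panel. Points are genes and the line is the running median of 11 members, which lies near 0 at the start, below 0 over most of the stretch from JMJD8 to WWOX (in the treated panel it comes up to 0 once, in window 6) and close to 0 over much of the stretch from CMC2 on.

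Along the chromosome, the shift was of similar size in 8 of the 9 windows that hold more than a few members. In untreated cells the median of window 1 (0 to 10 Mb, 143 members) was -0.25, with 67 members lower and 10 higher. Windows 2 (48 members) and 3 (57 members) had medians of -0.37 and -0.34, with 32 and 42 members lower and 1 and 2 higher. Window 4 (30 to 40 Mb, 48 members) was at -0.41, with 32 members lower and 0 higher. No member of the windows started in the 14.7 Mb between ZNF267 and SHCBP1, which hold the centromere.

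On the long arm the medians of windows 5 (12 members), 6 (52 members) and 7 (73 members) were -0.33, -0.32 and -0.36, with 8, 31 and 49 members lower. Window 8 (70 to 80 Mb, 47 members) was lowest at -0.44, or 73.9% of the parental level, with 32 members lower and 2 higher. Window 9 (80 to 90 Mb, 72 members) stood apart: its median was -0.10, or 93.1% of the parental level. There 16 members were lower (22.2%) and 5 higher (6.94%), beside 15% and 13.2% of all tested genes. Between the treated lines the windows ran from -0.29 in window 1 to -0.45 in window 4, and window 9 was at -0.04. Of its members 26 were then lower (36.1%) and 14 higher (19.4%), beside 23.1% and 21.8% of all tested genes. The last window held only DBNDD1 (log2 fold change -0.24 untreated and -0.25 treated) and GAS8 (-0.30 and 0.04). In untreated cells the call of DBNDD1 was lost without replicate 1 of the SDS22-degron libraries (-0.19) and without replicate 3 of the parental libraries (-0.16), and that of GAS8 without parental replicate 1 (-0.26).

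Split by arm, the 296 members of the short arm had medians of -0.32 and -0.34 and the 258 of the long arm of -0.30 and -0.29, untreated and treated. The 184 members of the long arm that start before 80 Mb were at -0.35 in both.

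**Figure D2:**
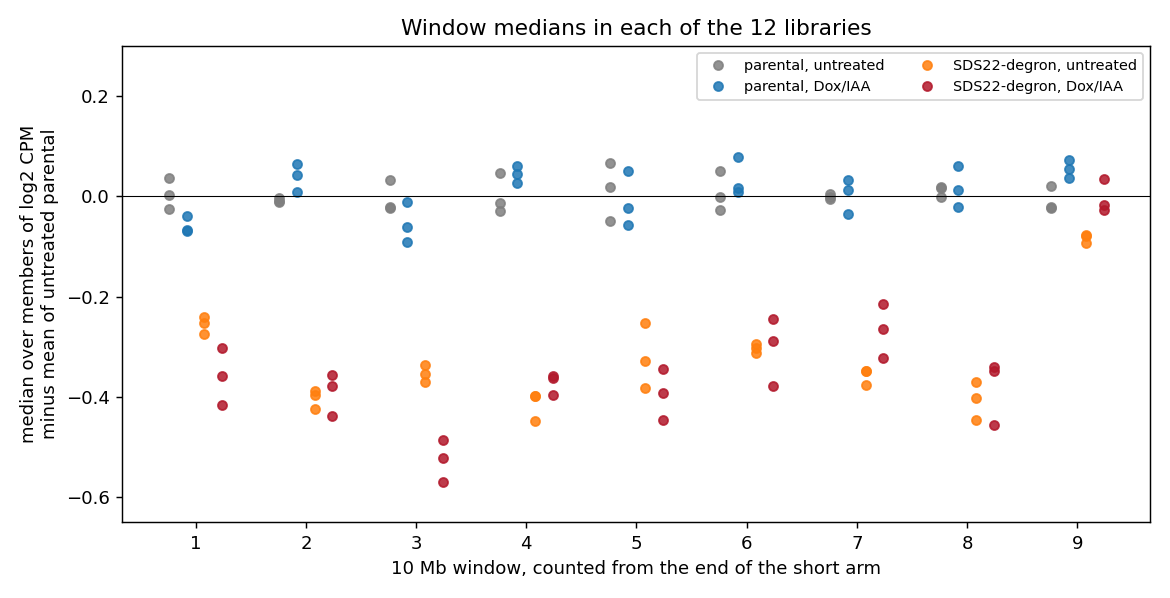
Median over the members of a window of the log2 CPM minus the mean of the untreated parental libraries (y axis). The x axis gives windows 1 to 9 of chromosome 16, counted from the end of the short arm. There is 1 point per library, coloured by group. The 6 libraries of the SDS22-degron line lie below the 6 parental libraries in windows 1 to 8 and move close to them in window 9.

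In windows 1 to 8 every SDS22-degron library had a lower median than every parental library. In window 8, for example, the untreated SDS22-degron libraries lay between -0.45 and -0.37 and the untreated parental ones between -0.00 and 0.02. In window 9 the untreated SDS22-degron libraries lay between -0.09 and -0.08, still below the untreated parental libraries (-0.02 to 0.02). After treatment the values in window 9 were -0.03 to 0.04 in the SDS22-degron line and 0.04 to 0.07 in the parental line, so that the groups nearly touched.

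The level changed within a few genes near both ends, a pattern that was seen only when the members were read in order, and that is given here as values with no test. The first 22 members, from POLR3K to STUB1 (start at 680224), did not show this shift in untreated SDS22-degron cells. Their median was 0.06, or 104% of the parental level. None of the 22 was called lower and 4 were called higher: MPG (0.30), a DNA glycosylase, DECR2 (0.36), a peroxisomal dienoyl-CoA reductase, RAB11FIP3 (0.78), a Rab11 effector, and MCRIP2 (0.40). These are shares of 0% and 18.2%, beside 15% and 13.2% of all tested genes. Between the treated lines 6 of the 22 were lower (27.3%) and 5 were higher (22.7%), near the 23.1% and 21.8% of all tested genes, with a median of 0.01. By library, the medians of this stretch were 0.02, 0.09 and 0.09 in untreated SDS22-degron cells and -0.19, 0.11 and 0.05 after Dox/IAA, against -0.06, 0.03 and 0.04 in untreated parental cells, so they overlapped.

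The next 458 members, from JMJD8 (start at 681671) to WWOX (start at 78099413), carried the shift. In untreated cells 293 of them were lower (64.0%) and 15 higher, and 90.2% were below 0. Their median was -0.35 (78.3% of the parental level), and between the treated lines it was -0.35 as well (78.5%). The medians by library were -0.35, -0.36 and -0.34 in the untreated and -0.39, -0.38 and -0.36 in the treated SDS22-degron cells, against values between -0.01 and 0.02 in all 6 parental libraries. Without the first 22 members, the median of window 1 was -0.30 in untreated cells.

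The last 74 members, from CMC2 (start at 80966448) on, had a median of -0.11 (92.4%) in untreated cells. Of them 18 were lower (24.3%) and 5 higher (6.76%), beside 15% and 13.2% of all tested genes. Between the treated lines the median was -0.04 (97.3%), and -0.085 without replicate 3 of the treated SDS22-degron libraries. There 27 were lower (36.5%) and 14 higher (18.9%), beside 23.1% and 21.8% of all tested genes. The share of lower members thus stayed above that of all genes, although the median was near 0. By library the untreated SDS22-degron cells were at -0.10, -0.08 and -0.09 and the treated ones at -0.03, -0.02 and 0.03, against -0.02, -0.02 and 0.02 in untreated and 0.06, 0.07 and 0.04 in treated parental cells. The median of the 15 members between 75 and 80 Mb was -0.55 in untreated cells, and that of the 22 members between 80 and 85 Mb was -0.01. The 50 members between 85 and 90 Mb were lower again, at -0.13.

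The genes at the first of these edges are neighbours. STUB1, which encodes the ubiquitin ligase CHIP, was at 65.6, 62.6 and 62.8 CPM in untreated parental cells and at 63.5, 68.4 and 70.1 CPM in untreated SDS22-degron cells. The values lay close together, and the log2 fold change was 0.08 ± 0.06 (SE) and did not pass the threshold (adjusted p 0.37, edgeR). JMJD8, which overlaps STUB1 on the opposite strand, was at 127, 138 and 144 CPM in untreated parental cells and 88.9, 90.9 and 91.6 CPM in untreated SDS22-degron cells. After Dox/IAA it was at 121, 134 and 129.96 CPM in the parental and 70.3, 73.5 and 75.9 CPM in the SDS22-degron line. All SDS22-degron libraries were below all parental libraries, with log2 fold changes of -0.59 ± 0.07 (adjusted p 3.1e-06, edgeR) untreated and -0.81 ± 0.07 (adjusted p 3.2e-08) treated. WDR24, a subunit of the GATOR complex of amino acid sensing and the next member, followed with -0.48 and -0.50.

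At the other edge, WWOX, a WW-domain oxidoreductase, was at 6.67, 5.94 and 6.43 CPM in untreated parental cells and 1.97, 1.65 and 2.28 CPM in untreated SDS22-degron cells. After Dox/IAA it was at 6.52, 4.66 and 7.0 CPM in the parental and 2.97, 2.87 and 3.13 CPM in the SDS22-degron line. The lines did not overlap in either condition, and the log2 fold changes were -1.69 ± 0.19 (adjusted p 3.7e-06, edgeR) and -1.02 ± 0.18 (adjusted p 0.00014). WWOX was under 10 CPM in every library, as was NUDT7, a peroxisomal hydrolase of coenzyme A that starts at 77722492 (-1.67 untreated and -1.98 treated). CMC2, which acts in the assembly of cytochrome c oxidase, was at 45.3, 50.1 and 44.6 CPM in untreated parental cells and 42.7, 46.9 and 48.7 CPM in untreated SDS22-degron cells, and the groups overlapped (-0.02 ± 0.09, adjusted p 0.91, edgeR). After Dox/IAA it was at 40.6, 52.3 and 42.9 CPM against 33.1, 28.5 and 31.4 CPM and was lower in the SDS22-degron line (-0.55). CENPN, a kinetochore gene that overlaps CMC2 on the opposite strand, had the values 0.08 untreated and -0.98 treated.

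Within the long middle stretch some members were far lower than their neighbours. In the following, the lowest and the highest of a window are those among called members with a mean of at least 10 CPM and no overlap between the libraries of the lines. C16orf62 (ENSG00000103544, chr16:19555240-19706793, plus strand) was at 38.9, 36.9 and 38.8 CPM in untreated parental cells and 10.5, 11.6 and 10.9 CPM in untreated SDS22-degron cells. After Dox/IAA it was at 40.9, 38.5 and 39.7 CPM and 15.4, 14.4 and 13.3 CPM. The lines were far apart in both conditions (-1.80 ± 0.09, adjusted p 5.6e-11, and -1.46 ± 0.08, adjusted p 6.5e-10, edgeR). The gene overlaps KNOP1 on the opposite strand. PLEKHG4 (ENSG00000196155, chr16:67277510-67289499, plus strand) was at 53, 47.5 and 52.4 CPM in untreated parental and 17.2, 15.9 and 14.3 CPM in untreated SDS22-degron cells, and at 49.6, 52.5 and 50.4 CPM and 23, 34.9 and 20.01 CPM after Dox/IAA. It too was lower in all SDS22-degron libraries (-1.69 ± 0.14, adjusted p 1.2e-07, and -0.97 ± 0.14, adjusted p 1.5e-05, edgeR). PRMT7, an arginine methyltransferase in the same window, had the values -1.58 untreated and -1.55 treated.

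METTL9, which encodes a histidine methyltransferase and was the lowest of window 3 in untreated cells, was at 57.7, 60.1 and 52.8 CPM in untreated parental and 27.6, 30.3 and 27 CPM in untreated SDS22-degron cells. The change was nearly the same in treated cells (-1.0 ± 0.08 and -0.95 ± 0.08). RAB26, a small GTPase of vesicle traffic and the lowest of window 1 in untreated cells, had the values -0.95 and -0.90. For GLG1, a Golgi glycoprotein and the lowest of window 8 in untreated cells, the line difference depended on the condition (interaction 0.69 ± 0.12, adjusted p 0.00098, edgeR). It was at 634, 553 and 612 CPM in untreated parental and 333, 311 and 329.8 CPM in untreated SDS22-degron cells (-0.89 ± 0.09, adjusted p 8.1e-07, edgeR), and at 688, 521 and 660.5 CPM and 534, 534 and 568 CPM after treatment, where the groups overlapped (-0.19 ± 0.09, adjusted p 0.078). The prostasin gene PRSS8, lowest of window 4, was at -0.99 in untreated cells. NETO2, a kainate receptor accessory protein and lowest of window 5 in untreated cells, was at -0.73 untreated and -1.15 treated. Its interaction did not pass (-0.42 ± 0.16, adjusted p 0.085, edgeR). Between the treated lines the lowest were CHTF18 in window 1 and SHCBP1 in window 5. The lowest of window 6 in untreated cells, HERPUD1, a gene of the endoplasmic reticulum stress response, rests on 1 library: the untreated parental libraries were at 355, 62.5 and 58.1 CPM and the SDS22-degron ones at 52.9, 55.6 and 50.9 CPM. Without parental replicate 1 its log2 fold change was -0.17 in place of -1.57 and the call was lost.

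A few members of the middle stretch went the other way. NKD1, which encodes an inhibitor of Wnt signalling, was at 12.2, 14.6 and 14.7 CPM in untreated parental and 27.3, 23.2 and 21 CPM in untreated SDS22-degron cells (0.78 ± 0.12, adjusted p 6.1e-05, edgeR). After Dox/IAA it was at 22.3, 26.2 and 23 CPM and 38.4, 35.2 and 33 CPM, so the SDS22-degron line was higher in both conditions. XYLT1, a xylosyltransferase of proteoglycan synthesis, was higher by 0.94 and 0.50, and FAHD1, a mitochondrial hydrolase, by 0.47 and 0.48. SLC12A4, a potassium-chloride cotransporter, was higher by 0.33 and 0.46, but the first of these calls was lost without replicate 3 of the untreated SDS22-degron libraries (0.28). From 80 Mb on, KIAA0513 was the highest, at 15, 15.3 and 13.7 CPM in untreated parental and 25.9, 24.3 and 26.8 CPM in untreated SDS22-degron cells (0.81 ± 0.09, adjusted p 5.9e-06, edgeR). CDT1, the licensing factor of replication origins, was the lowest there, at 172, 176 and 178 CPM against 117, 121 and 122 CPM (-0.54 ± 0.07, adjusted p 1.3e-05, edgeR).

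**Figure D3:**
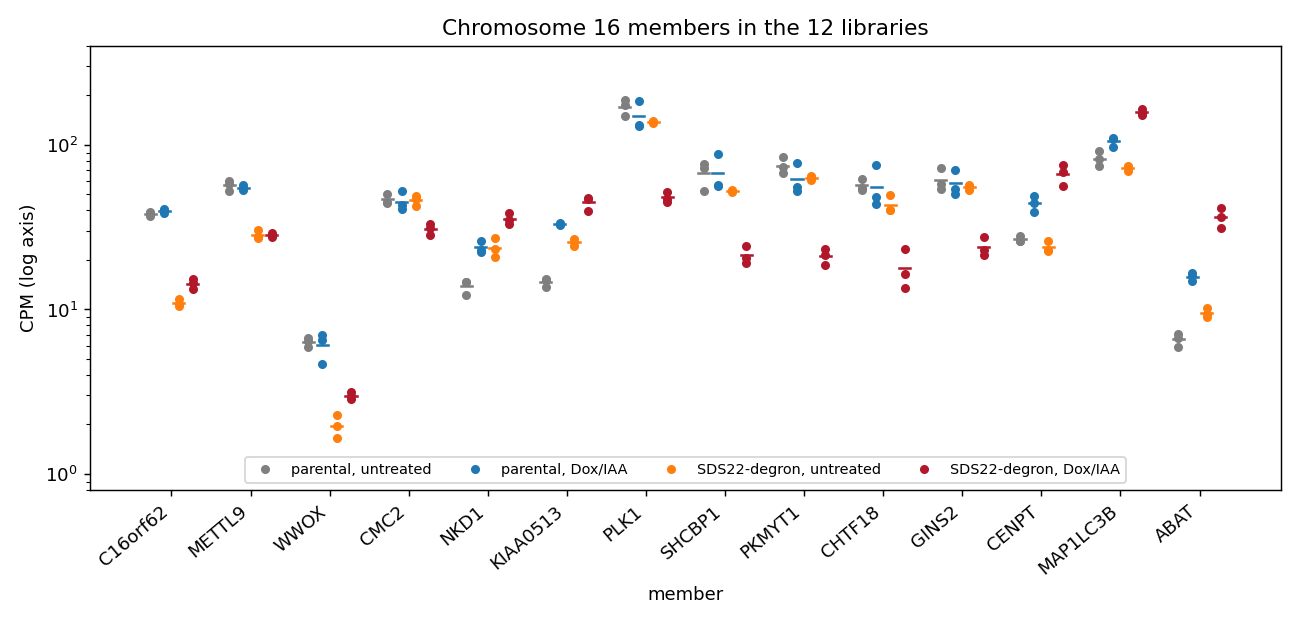
CPM of 14 members (x axis) in each of the 12 libraries (y axis, log scale), coloured by group. C16orf62, METTL9 and WWOX are lower in both SDS22-degron groups, PLK1, SHCBP1, PKMYT1, CHTF18 and GINS2 are lowest in the treated SDS22-degron libraries, and ABAT rises with Dox/IAA in both lines.

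Grouped by role, most lists of unlike function had similar medians. The lists were written with earlier results of these data known, so they are no independent evidence. In untreated cells, 13 of 17 members for the proteasome, ubiquitin and membrane traffic were lower and 0 higher (median -0.33), among them VPS35 (-0.32) of the retromer. Of 20 members for mitochondrial proteins, 13 were lower and 2 higher (median -0.35), of 16 for the ribosome and translation 13 were lower and 0 higher (median -0.35), and of 30 for the cell cycle, DNA replication and repair 19 were lower and 1 higher (median -0.37). In the 16p11.2 interval, a stretch with recurrent deletions in people, 14 of 18 members were lower and 0 higher (median -0.40). Over these lists the share of lower members ran from 63.3% (cell cycle) to 81.25% (ribosome and translation), beside 15% of all tested genes. The examples named here come from the low end of the lists. They are AARS (-0.69), the alanyl-tRNA synthetase, NDE1 (-0.87), a dynein regulator of mitosis, TERF2IP (-0.81), a telomere protein, and the kinase gene MAPK3 (-0.47). The highest values were 0.47 for mitochondrial proteins, 0.30 for the cell cycle list and 0.18 for the 16p11.2 interval. They were 0.08 for the proteasome list and -0.13 for the ribosome and translation.

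Of 15 tumour suppressor and signalling genes 8 were lower (53.3%, beside 15% of all tested genes) and 0 higher (median -0.28). CBFB (-0.77), the partner of the RUNX factors, was the lowest of those with at least 10 CPM, and TSC2 was at -0.45. Among the 3 cadherins 1 was lower (median 0.10), and among the 4 metallothioneins, which share sequence and are uncertain for that reason, 2 were lower (median -0.48). Between the treated lines the medians were -0.38 for the proteasome, ubiquitin and membrane traffic (12 lower, 0 higher), -0.41 for mitochondrial proteins (13 and 2), -0.45 for the ribosome and translation (12 and 1), -0.52 for the 16p11.2 interval (13 and 1) and -0.17 for tumour suppressors and signalling (6 and 1). The cell cycle list was further down, at -0.79, with 25 members lower and 1 higher. The metallothioneins were at -0.86 (3 lower) and the cadherins at 0.17 (1 higher). Apart from the cadherins (0%), the share of lower members ran from 40% (tumour suppressors and signalling) to 83.3% (cell cycle), beside 23.1% of all tested genes.

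Before 80 Mb the shift was of similar size at low and high expression. Split in 3 groups by mean level, the members that start before 80 Mb had medians of -0.29, -0.38 and -0.34 from low to high in untreated cells. From 80 Mb on the medians were 0.05, -0.12 and -0.13. Across all members, the Spearman rank correlation of the untreated log2 fold change was 0.07 with GC content, 0.04 with length and -0.05 with mean log2 CPM, whereas over the 74 members from 80 Mb on it was -0.24, -0.03 and -0.36. These are descriptions across genes of the same libraries. The tested genes of chromosome 16 of other RNA types, 148 in number, included 134 that start before 80 Mb. Their median was -0.16 untreated and -0.21 treated, with 15 lower and 3 higher in untreated cells. The other 14, which start from 80 Mb on, were at -0.13 untreated and -0.60 treated. Between the treated lines 5 were lower (35.7%) and 0 higher, so there these few genes did not show the rise in level seen for the members. Their untreated libraries overlapped: -0.00, -0.30 and 0.07 in SDS22-degron against 0.07, -0.10 and 0.08 in parental cells. With a median SE of 0.28, they cannot show whether the level rises in untreated cells. The 4084 genes of such types on other chromosomes had medians of 0.004 and -0.05. Of these, 7.22% were lower and 5.66% higher untreated, and 17.1% were lower and 11.8% higher treated.

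The same rule was applied to the other chromosomes for comparison. In untreated cells the median of chromosome 16 was the second lowest of 23: chromosome 3 was at -0.32, chromosome 1 at -0.15 and chromosome 8 at -0.13, and the highest was chromosome 14 with 0.10. Between the treated lines chromosome 16 was the lowest, before chromosome 3 (-0.28), chromosome 1 (-0.14) and chromosome 8 (-0.13). Chromosome 15 was at -0.12 untreated and -0.07 treated. On chromosome 8 the 183 genes that start before 70 Mb had a median of -0.01 in untreated cells and the 224 from 70 Mb on of -0.23. This cut was set for chromosome 8 only, at the place where its window medians went from -0.02 to -0.20, so it is a description. Such differences along a chromosome were not particular to chromosome 8. On chromosome 1 the untreated window medians ran from -0.353 to -0.145 up to 120 Mb and from -0.145 to 0.097 from 140 Mb on. These ranges touched. The window from 120 Mb held 4 genes, at -0.51. All untreated window medians of chromosome 3 lay between -0.44 and -0.22. Whether these line differences share a source with that of chromosome 16 was not tested.

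**Figure D4:**
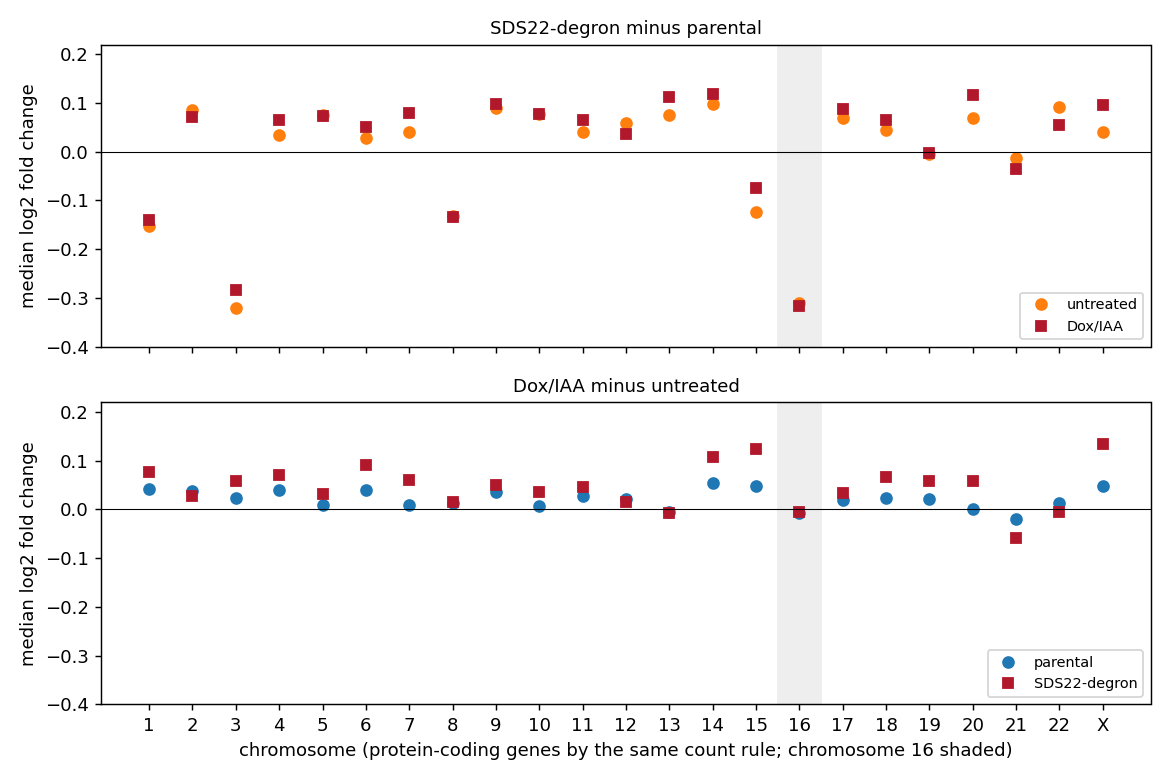
Median log2 fold change of protein-coding genes chosen by the same count rule on each of 23 chromosomes (x axis), for the line comparisons in one panel and the Dox/IAA comparisons in the other (y axis). Chromosomes 16 and 3 are the lowest in both line comparisons, whereas no chromosome departs far from 0 under Dox/IAA.

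Dox/IAA left the median of the chromosome close to its untreated level. In parental cells 92 members fell (16.6%) and 108 rose (19.5%), against 15.7% and 15.9% of all tested genes, and the median level was 99.4% of the untreated one. In the SDS22-degron line 172 members fell (31.0%) and 163 rose (29.4%), against 25.5% and 26.0% of all tested genes. The median level there was 99.7%. Among protein-coding genes of other chromosomes by the same count rule, 15.6% fell and 20.3% rose in parental cells. In SDS22-degron cells 25.9% of those genes fell and 32.5% rose, so the share of rising members was not above theirs in either line. Of the members that fell, 81 did so in both lines, which is 88.0% of those in parental and 47.1% of those in SDS22-degron cells. On other chromosomes, by the same count rule, these shares were 74.5% and 44.7%. A further 89 of the 554 members rose in both lines and 2 were called in opposite directions. Of the 11283 genes of other chromosomes, 1806 rose in both lines and 70 were called in opposite directions. Across members the effects in both lines had a Pearson's r of 0.75, against 0.69 for genes of other chromosomes by the same count rule.

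**Figure D5:**
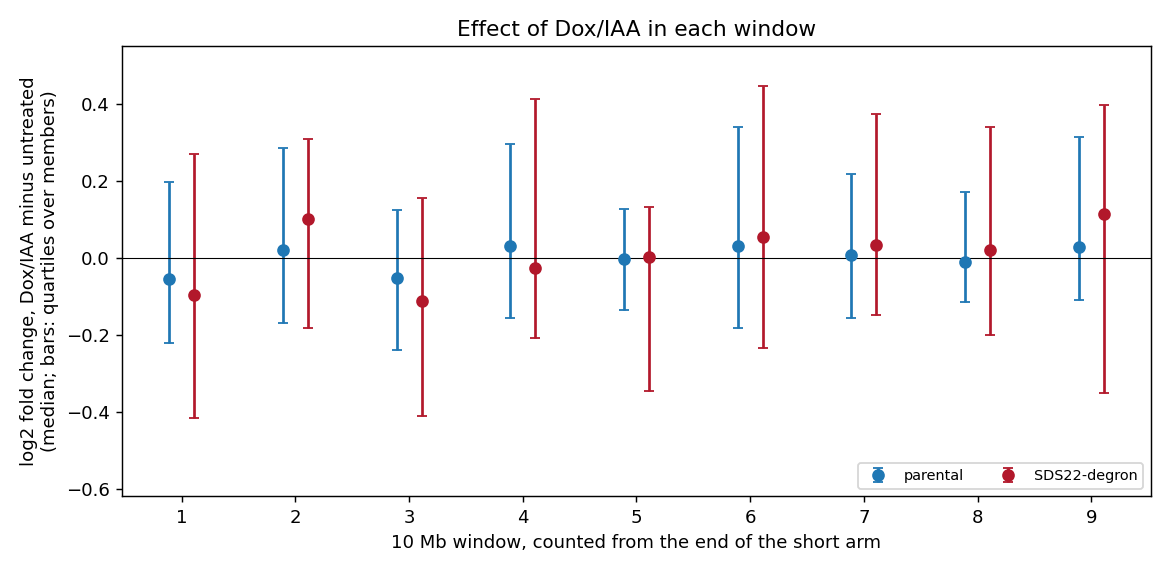
Median and quartiles of the log2 fold change Dox/IAA against untreated (y axis) in windows 1 to 9 of chromosome 16 (x axis), for parental and SDS22-degron cells. The medians lie between -0.11 and 0.11.

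By window, the medians of the Dox/IAA effect ranged from -0.05 to 0.03 in parental cells. In the SDS22-degron line they ranged from -0.11 in window 3 and -0.10 in window 1 to 0.10 in window 2 and 0.11 in window 9. The quartiles of neighbouring windows overlapped in both lines. Windows of 10 Mb cannot show a step at STUB1, which lies inside window 1: the 22 members up to STUB1 had medians of -0.03 in parental and -0.07 in SDS22-degron cells. Around 80 Mb, the 15 members between 75 and 80 Mb were at -0.01 and 0.12 and the 22 members between 80 and 85 Mb at 0.12 and 0.26.

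Single members responded strongly, scattered over the chromosome. ABAT (ENSG00000183044) was at 6.67, 7.11 and 5.93 CPM in untreated and 16.6, 14.9 and 16 CPM in treated parental cells, and at 9.33, 10.2 and 8.96 CPM and 36.6, 31.1 and 41.3 CPM in the SDS22-degron line. Treated libraries were above untreated ones in both lines, with log2 fold changes of 1.27 ± 0.13 (adjusted p 1.8e-06, edgeR) and 1.93 ± 0.11 (adjusted p 8.1e-10). BAIAP3, a gene of dense-core vesicle release, rose by 1.14 and 1.13, KIAA0513 by 1.17 and 0.81, and NDRG4 by 0.96 and 0.97. RAB11FIP3, from the stretch before the first edge, rose by 0.85 and 0.56. Among the members that fell in both lines were SLC7A5, the large neutral amino acid transporter LAT1 (-0.83 and -0.74), TRAP1, the mitochondrial HSP90 (-0.69 and -0.95), the transcription factor TFAP4 (-0.73 and -0.92), the mitochondrial alanine aminotransferase GPT2 (-0.64 and -0.28) and the DNA glycosylase NTHL1 (-0.61 and -0.82).

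Of all tested genes, 15.7% fell and 15.9% rose in parental cells, and 25.5% fell and 26.0% rose in SDS22-degron cells. By list, 12 of the 16 ribosome and translation genes fell in parental cells (75%, median -0.39). In SDS22-degron cells 11 fell (68.75%, median -0.37), and 0 rose in either line. Of the 20 mitochondrial genes 10 fell in parental cells (50%, median -0.17). In SDS22-degron cells 12 fell (60%) and 2 rose (10%, median -0.21). The tumour suppressor and signalling genes had 0 members that fell and 2 that rose (13.3%) in parental cells (median 0.09). In SDS22-degron cells 1 fell (6.67%) and 8 rose (53.3%, median 0.18). Proteasome, ubiquitin and traffic genes had medians of -0.04 (2 fell, 2 rose, 11.8% each) in parental and -0.06 (6 fell, 35.3%, and 5 rose, 29.4%) in SDS22-degron cells. Those of the 16p11.2 interval were at 0.06 (0 fell, and 3 rose, 16.7%) and -0.02 (7 fell, 38.9%, and 6 rose, 33.3%). The cadherins were at 0.26 and 0.72, with 2 of 3 rising in each line, E-cadherin (CDH1) among them (0.36 and 1.0). The metallothioneins were at -0.41 and -0.75, with 3 of 4 falling in each line.

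For the cell cycle, DNA replication and repair list the counts in the lines were far apart. In parental cells 5 of its 30 members fell (16.7%) and 3 rose (10%, median -0.10), beside 15.7% and 15.9% of all tested genes. In SDS22-degron cells 20 fell (66.7%) and 5 rose (16.7%, median -0.63), beside 25.5% and 26.0%. PLK1, the mitotic kinase, was at 149, 189 and 174 CPM in untreated and 131, 185 and 132 CPM in treated parental cells, and at 137, 135 and 141 CPM and 51.9, 46.8 and 45.1 CPM in the SDS22-degron line. Its treated SDS22-degron libraries were far below all others. The log2 fold change of Dox/IAA was -0.19 ± 0.11 in parental (adjusted p 0.19, edgeR) and -1.52 ± 0.12 in SDS22-degron cells (adjusted p 1.0e-08). SHCBP1 was at 72.5, 77.1 and 52.7 CPM and 56.2, 87.9 and 57.1 CPM in parental cells and at 53.4, 52.8 and 51.9 CPM and 24.3, 20.5 and 19.3 CPM in the SDS22-degron line. It fell by 1.30 on the log2 scale in the SDS22-degron line and had the value -0.01 in the parental line. GINS2, a subunit of the replicative helicase, was at 56.4, 57.1 and 53.5 CPM in untreated and 27.6, 23.1 and 21.6 CPM in treated SDS22-degron cells.

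Whether the Dox/IAA effect differed between the lines was tested with the interaction of line and treatment. It was negative for 56 members (10.1%) and positive for 35 (6.32%) by the same edgeR test and threshold, against 8.35% and 6.03% of all tested genes. Among protein-coding genes of other chromosomes by the same count rule, it was negative for 9.55% and positive for 7.91%. The count of 35 became 53 with a replicate block, and 23 without replicate 1 of the untreated or replicate 3 of the treated SDS22-degron libraries. The median over the members was 0.002 and the medians of the windows lay between -0.04 in window 4 and 0.07 in window 7. Of the 30 cell cycle genes 16 were negative and 3 positive (median -0.29), while the other lists had at most 3 members on either side: 2 and 1 for the ribosome and translation (median -0.02), 1 and 1 for mitochondrial proteins (-0.07), 1 and 0 for the proteasome list (-0.05), 3 and 2 for the 16p11.2 interval (-0.06), 0 and 1 for tumour suppressors and signalling (0.15), 0 and 2 for cadherins (0.46) and 2 and 0 for metallothioneins (-0.34).

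The most negative values among members with at least 10 CPM were -1.33 ± 0.16 for PLK1 (adjusted p 4.3e-05, edgeR), -1.30 for PKMYT1, a kinase that inhibits CDK1, -1.29 for SHCBP1, -1.25 for CHTF18, a subunit of an alternative clamp loader, and -1.14 for GINS2. FANCA, of the Fanconi anaemia DNA repair pathway, followed with -1.12. These genes lie on both arms, PKMYT1 and CHTF18 in window 1, PLK1 in window 3, SHCBP1 in window 5 and GINS2 and FANCA in window 9. On the positive side CENPT, a kinetochore gene, was at 26.1, 26 and 27.9 CPM in untreated and 39.2, 49.1 and 44.3 CPM in treated parental cells and at 22.8, 22.8 and 26.2 CPM and 56.2, 76 and 68.4 CPM in the SDS22-degron line. It rose in both lines and more so in the SDS22-degron line (0.73 and 1.48, interaction 0.75 ± 0.15, adjusted p 0.0028, edgeR). MAP1LC3B, which encodes the autophagy protein LC3B, was at 109, 97 and 109.7 CPM in treated parental and 153, 156 and 165 CPM in treated SDS22-degron cells (interaction 0.78 ± 0.11, adjusted p 0.00013, edgeR). The interaction of PLEKHG4 (0.72 ± 0.20, adjusted p 0.019, edgeR) was lost without replicate 3 of the untreated SDS22-degron libraries (0.66).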

How the data were processed

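RNA of 12 HCT116 libraries was sequenced as single reads from poly-A selected, stranded libraries. Per the labels, reads were processed with cutadapt 1.15, Bowtie2 2.3.3.1, STAR 2.5.2b, SAMtools 1.5 and featureCounts 1.5.3 on GRCh38; the role of each tool, the annotation release and the strand setting are not given in the sources used here. The table that the authors deposited holds whole-number counts per gene that were not normalized, with the position and length of each gene and its GC content in percent, also a deposited value. A further deposited table holds the authors' own comparisons and was not used.

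The whole table was fitted with edgeR 4.0.16 in R 4.3.3 (filterByExpr with a minimum count of 10, 16657 genes tested, TMM, 4 group means, quasi-likelihood F test, Benjamini-Hochberg over all tested genes), after a check on simulated counts. CPM are TMM-normalized, and log2 CPM used a prior count of 2. SE come from the F statistic. The 12 library totals were between 12133915 and 14657508, and the common biological coefficient of variation was 7.48%. Replicates exceeded counting noise (chi-square per degree of freedom 2.16 to 9.73 between pairs of replicates, over sufficiently counted genes of all chromosomes).

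Members and lists were chosen with earlier results of these data known. Medians over genes were not tested. Genes named are, in each window and line comparison, the lowest and the highest called member with no overlap between the libraries and a mean of at least 10 CPM, the 5 highest and 5 lowest for Dox/IAA and the interaction, and the 2 highest and 2 lowest of each list. The stretches bounded by JMJD8 and WWOX, with the genes at their edges, and other examples with known roles, including FOXL1, were chosen after their values were seen. Of the members, 20 have near-identical copies and 218 overlap another counted gene, 34 of them on the same strand.

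Results were recomputed with DESeq2 1.42.0 and with the likelihood ratio test of edgeR, with other scalings, filters and window sizes, only the groups compared, a GC correction per library, the replicate number as a block and each library left out in turn. The series text speaks of independent experiments without tying the replicate numbers to them. Deviations of same-numbered libraries from their group means correlated above 0.1 in all 3 pairs in 2 comparisons, the treated lines (0.101 to 0.138) and Dox/IAA in parental cells (0.124 to 0.246), so there the numbers were taken as pairing, from the data.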

Additional observations from a re-analysis of the deposited data

Results flagged for a closer look

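The 11 members listed here had an interaction of line and Dox/IAA at an adjusted p under 0.05 (edgeR's quasi-likelihood test). They are the 5 lowest and 5 highest called members with at least 10 CPM, and FOXL1, the lowest of all members. Other members named in the text, such as GLG1, passed as well and are not repeated here. The log2 difference, SDS22-degron minus parental, was -1.40 for FOXL1, a forkhead transcription factor that stayed under 5 CPM, -1.33 for PLK1, -1.30 for PKMYT1, -1.29 for SHCBP1, -1.25 for CHTF18 and -1.14 for GINS2. It was 0.69 for MAPK8IP3, a motor adaptor of neurons, 0.71 for SEZ6L2, 0.72 for PLEKHG4, 0.75 for CENPT and 0.78 for MAP1LC3B. For FOXL1 the untreated SDS22-degron libraries were at 3.50, 2.75 and 4.18 CPM and the treated ones at 1.37, 2.09 and 1.56 CPM, while the parental libraries lay between 1.25 and 2.32 CPM.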

How the results depend on the processing

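The counts of lower and higher members in the 5 comparisons stayed within 1.5 times of the reported count under 197 of 200 alternative settings. Only the number of positive interactions moved more, to 53 in the fit with a replicate block and to between 23 and 42 when each library was left out in turn. Over all 18 pairs of libraries with the same number, 7 had a correlation above 0.1 (-0.057 to 0.246), and the untreated lines, the SDS22-degron conditions and so the interaction were not paired throughout. The block moved no other count by over 1.5 times, and no call of a gene named in the text in the 2 paired comparisons. Of the calls for named genes, 2211 of 2286 kept their side of the threshold, 62 were lost, 13 were gained and 0 reversed.

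The median of the members between the untreated lines was -0.28 with library size only and with the upper quartile, -0.33 with TMM without chromosome 16 and -0.32 to -0.28 without single libraries. Between the treated lines it was -0.28 with the upper quartile and -0.34 to -0.30 without single libraries. For Dox/IAA in the SDS22-degron line it was 0.012 with TMM without chromosome 16, 0.036 with library size only, 0.016 with the upper quartile and -0.028 to 0.011 without single libraries. In parental cells it was 0.051 with library size only, 0.016 with the upper quartile and -0.025 to 0.0048 without single libraries. The interaction was -0.016 with library size only and -0.030 to 0.0048 without single libraries.

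From JMJD8 to WWOX, the untreated median was -0.37 with TMM without chromosome 16, -0.33 with library size only, -0.32 with the upper quartile and -0.36 to -0.33 without single libraries. The treated one was -0.36 without a filter, -0.32 with the upper quartile and -0.37 to -0.34 without single libraries. From 80 Mb on, the untreated median was -0.087 with library size only, -0.078 with the upper quartile and -0.11 to -0.079 without single libraries, and the treated one was -0.0082 with the upper quartile and -0.085 to -0.031 without single libraries. With windows of 5 Mb the highest treated window median was 0.040, the opposite sign of the reported one, the highest untreated one was -0.0064 and the lowest untreated one -0.55. With 20 Mb the lowest were -0.40 treated and -0.39 untreated. The cause of these shifts was not tested, except that other window sizes hold other members. At this depth and with 3 libraries per group, the median SE of a member was 0.094 between the untreated lines.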
